A study of Drosophila simulans with 4 samples.

Results

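Genes of insulin-like and adipokinetic hormone signalling were compared between adult males of 2 populations of Drosophila simulans, of which one lives at Gotheron in France and the other on Mayotte. The members were 10 genes listed by identifier: the insulin-like peptides Ilp2, Ilp3, Ilp5 and Ilp6, the binding protein ImpL2, the signalling genes chico, foxo and Thor, and the hormone Akh with its receptor AkhR. Of these, 8 were analysed, among 15358 genes with a normalised read count. Ilp5 (FBgn0044048) and Thor (FBgn0022073) were not analysed here, because their identifiers matched no row of the values used. The 8 genes are Ilp2 (FBgn0036046), Ilp3 (FBgn0044050), Ilp6 (FBgn0044047), ImpL2 (FBgn0001257), chico (FBgn0024248), foxo (FBgn0038197), Akh (FBgn0004552) and AkhR (FBgn0025595).

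Insulin-like peptides of insects are secreted hormones that report nutrition to the tissues and set growth, metabolism, reproduction and lifespan. In D. melanogaster they act through a receptor tyrosine kinase, with chico as its adaptor protein, and active signalling keeps the transcription factor foxo out of the nucleus. The adipokinetic hormone acts in the opposite metabolic direction, as a counterpart of vertebrate glucagon, and mobilises stored fat and sugar through its receptor in the fat body.

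There were 4 libraries of whole-body RNA, 1 for each population and medium. Each held 100 pooled males, bred from wild-caught females, and the RNA of 4 extractions was combined for it. In each population 1 library came from males reared on cornmeal medium. The remaining library came from a natural medium, apple for Gotheron and banana for Mayotte. The cornmeal library is called replicate 1 and the natural library replicate 2, so both libraries of a population differ in food and no library was repeated. The labels give 7 days of ageing and the methods a shorter time. The methods also state that the natural medium in Mayotte carried bacteria, and the part of this in the values below was not tested. Whole bodies were used, so more cells of a type and more RNA per cell cannot be told apart.

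The depth was even, from 9829895 to 10365609 reads per library as recovered from the values, which were scaled by the authors to equal totals. The study describes a larger number of mapped reads per library, and the cause of this gap was not tested. Counting intervals below rest on the recovered reads. Reads came from the 3′ end of each transcript, so levels were compared between genes without division by length. The methods state that short reads can map poorly where a sequence is highly diverged, and expect little bias between the populations from it. Differences in mapping between genes were not tested here, and they would enter levels and shares that compare genes. All 8 genes had reads in every library, from 36 for Ilp3 to 1508 for foxo. In the deposited scaling the median gene lay 0.12 higher in Gotheron on the log2 scale, over the 12508 genes that reached a mean of 5 reads. Under TMM scaling, in which most genes are level between libraries, it was -0.0046. Population ratios are given under both scalings where this matters.

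**Figure D1:**
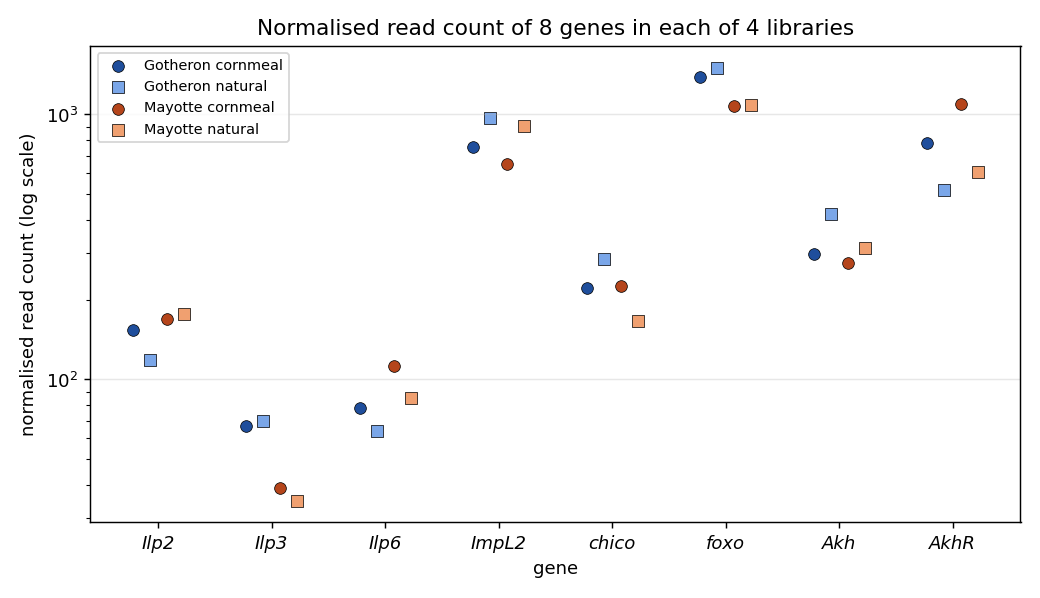
Normalised read count (vertical axis, log scale) of each of the 8 genes (horizontal axis) in each of the 4 libraries, 1 point per library. Both Gotheron points of Ilp3 lie above both Mayotte points, and both cornmeal points of AkhR lie above both natural points.

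foxo had the highest mean level, at 1261 normalised reads and rank 1234 of all genes. ImpL2 followed at 819.8 and AkhR at 751.1, ranks 1905 and 2076. Akh had a mean of 326.7, chico of 224.4 and Ilp2 of 154.4. Ilp6 (84.9) and Ilp3 (52.6) were the lowest, at ranks 7997 and 9120. The ranges of ImpL2 and AkhR over the libraries overlapped, as did those of Akh with chico, of chico with Ilp2, and of Ilp6 with Ilp3. Compared within a library, Akh was above chico in every library. The order of ImpL2 and AkhR, of chico and Ilp2, and of Ilp6 and Ilp3 differed between libraries. foxo did not overlap ImpL2 but did overlap AkhR, which at 1098 was above foxo at 1073 in the Mayotte cornmeal library. AkhR and Akh did not overlap, nor did Ilp2 and Ilp6.

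Among the 8 genes, Ilp3 was higher in Gotheron, at 1.85 times its Mayotte level, and was the only one called. foxo, at 1.33 times, had both Gotheron libraries above both Mayotte libraries without passing the test. Ilp2, Ilp6 and AkhR had the lower mean in Gotheron, at 0.79, 0.72 and 0.76 times their Mayotte level, and none of these passed. ImpL2, chico and Akh had ratios of 1.11 to 1.30 and overlapping populations.

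Whether the populations differed was tested in each gene with the 2-step procedure that the study's methods describe, a Poisson model with overdispersion. It smooths the dispersion over genes of similar mean, tests the ratio of the population means, and keeps a gene only where both libraries of a population lie above both of the other. The study left immunity-related genes out before testing. That step was not repeated here, where all listed genes were smoothed, tested and adjusted together, and its effect on the adjusted p-values was not tested. With this procedure 1 of the 8 genes, Ilp3, was called, against 5.22% of all genes. With 8 genes, 1 call at this background is a result about Ilp3 and not about the genes as a group. The call was for a higher level in Gotheron, a direction in which 3.12% of all genes were called, and 0 of the 8 were called higher in Mayotte, against 2.10%. In 4 of the 8 genes the populations did not overlap, against 44.2% of all genes. These were Ilp3 and foxo, both higher in Gotheron (30.8% of all genes), and Ilp2 and Ilp6, both higher in Mayotte (13.4%). An unadjusted p under 0.05 was found in 4 of the 8 genes (Ilp3, foxo, AkhR and Ilp6) and in 16.5% of all genes. Under TMM scaling 0 of the 8 genes were called, against 5.69% of all genes, and an unadjusted p under 0.05 was found in 4 of the 8 (Ilp2, Ilp3, Ilp6 and AkhR) and in 15.7% of all genes. limma, which takes the spread within populations, was fitted to the 12508 genes that reached a mean of 5 reads. At an adjusted threshold of 0.05, 0 of the 8 genes passed, against 1.09% of the fitted genes. Without adjustment limma gave a p under 0.05 for 2 of the 8, Ilp3 and foxo, against 14.0% of the fitted genes. The median absolute limma difference was 0.37 over the 8 genes and 0.24 over the fitted genes, on the log2(normalised count + 1) scale.

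Ilp3 encodes a peptide that in D. melanogaster is made in the insulin-producing neurosecretory cells of the brain. Its normalised read count was 66.8 on cornmeal and 69.8 on apple in Gotheron. In Mayotte it was 38.9 on cornmeal and 34.9 on banana. Both Gotheron libraries were high and both Mayotte libraries low, and within a population the media lay close together. The population means were 68.3 ± 2.08 and 36.9 ± 2.79 (SD, n = 2 libraries each), a ratio of 1.85 with a 95% interval of 1.24 to 2.76 at the smoothed dispersion. The adjusted p was 0.0447 in the 2-step procedure, from an unadjusted p of 0.0024. At the level of Ilp3 a ratio of at least 1.83 was needed to pass, so the call lay close to the edge of what this test could call. The limma log2 difference was 0.87 (standard error 0.24, adjusted p = 0.17), larger in size than that of 93.3% of the genes tested. Under TMM scaling the log2 ratio was 0.76, against 0.89 in the deposited scaling, and the adjusted p of the 2-step procedure was 0.089. The call was also lost without Gotheron replicate 2 (log2 ratio 0.86), without Mayotte replicate 1 (0.97) and without Mayotte replicate 2 (0.81). The level stayed higher in Gotheron in each of these, which was fixed in advance because the populations do not overlap.

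Ilp3 was higher in Gotheron within each medium. On cornmeal the ratio was 1.72, with a 95% Clopper-Pearson interval of 1.14 to 2.64 that covers counting error only. With the smoothed dispersion in place of pure counting error, this interval was 0.99 to 2.996. Between the natural media the ratio was 1.998, with intervals of 1.32 to 3.08 and 1.13 to 3.54. Between the cornmeal libraries, 12.7% of the genes that reached a mean of 5 reads had a larger difference in either direction. Between the natural ones 8.13% did.

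Ilp2, the other peptide of the brain insulin-producing cells measured here, did not follow Ilp3. Its normalised read count was 153.9 on cornmeal and 118.6 on apple in Gotheron, and 168.7 on cornmeal and 176.5 on banana in Mayotte. Both Mayotte libraries lay above both Gotheron libraries, and the Gotheron natural library was lowest. The ratio of Gotheron to Mayotte was 0.79, with a 95% interval of 0.59 to 1.05, and did not pass the test (adjusted p = 0.43 in the 2-step procedure). Under TMM scaling the log2 ratio was -0.47, with an interval of -0.86 to -0.085 that lies below no change, an unadjusted p of 0.0168 and an adjusted p of 0.17. In the deposited scaling the log2 ratio was -0.34, and it ranged from -0.54 without Gotheron replicate 1 to -0.17 without Gotheron replicate 2.

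The share of Ilp3 among the reads of Ilp3 and Ilp2 compares both genes within a library, and so does not depend on how libraries were scaled. The RNA is of whole bodies, so the share is not that of a single tissue or cell type. In Gotheron it was 30.3% of 218 reads on cornmeal (95% Clopper-Pearson interval 24.3 to 36.8%) and 37.0% of 189 reads on apple (30.1 to 44.3%). In Mayotte it was 18.7% of 203 reads on cornmeal (13.6 to 24.8%) and 16.5% of 218 reads on banana (11.8 to 22.1%). Both Gotheron shares were above both Mayotte shares, and of the intervals between populations only those of the cornmeal libraries overlapped. The mean share was 33.7% ± 4.78 in Gotheron and 17.6% ± 1.56 in Mayotte (SD, n = 2). An exact two-sided permutation test gave p = 0.33, the smallest that 2 libraries against 2 allow.

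**Figure D2:**
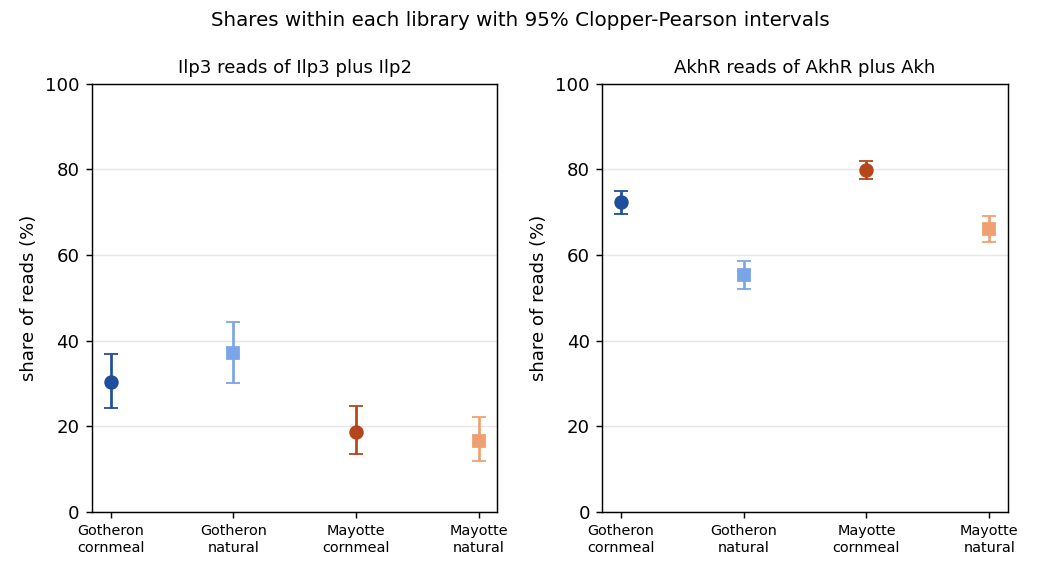
Share of Ilp3 among the reads of Ilp3 and Ilp2 (left) and of AkhR among the reads of AkhR and Akh (right), in percent, for each of the 4 libraries, with bars for the 95% Clopper-Pearson interval. The Ilp3 share is 30.3% and 37.0% in Gotheron and 18.7% and 16.5% in Mayotte, and the AkhR share is lower in the natural library of each population.

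Ilp6 encodes a peptide that in D. melanogaster comes mainly from the fat body and is induced by starvation. It had 78.0 normalised reads on cornmeal and 63.8 on apple in Gotheron, and 112.5 on cornmeal and 85.3 on banana in Mayotte. Both Mayotte values were the higher, and in each population the cornmeal value was above the natural one. The ratio of Gotheron to Mayotte was 0.72 (95% interval 0.51 to 0.997), with an unadjusted p of 0.048 and an adjusted p of 0.30 in the 2-step procedure. Under TMM scaling the unadjusted p was 0.0093 and the adjusted p 0.11. A ratio of 1.65 in either direction would have been needed to pass at this level. Ilp6 made up between 32.6% and 40.0% of the reads of Ilp6 and Ilp2 in the 4 libraries, and these shares overlapped between populations. Of the 3 peptides, Ilp3 was called higher in Gotheron, while Ilp2 and Ilp6 had the lower mean there without passing the test.

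ImpL2 encodes a secreted protein that binds insulin-like peptides and in D. melanogaster limits their signalling. Its normalised read count was 753.3 on cornmeal and 968.7 on apple in Gotheron, and 651.4 on cornmeal and 905.8 on banana in Mayotte. The natural library was the higher in both populations, and the populations overlapped. The ratio of Gotheron to Mayotte was 1.11, with a 95% interval of 0.87 to 1.41, and its log2 value of 0.15 was close to the shift of the median gene (adjusted p = 0.78 in the 2-step procedure). Without Gotheron replicate 2 the log2 ratio was -0.048 and without Mayotte replicate 1 it was -0.073, so its sign was not stable.

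chico, the adaptor of the insulin receptor, had 220.7 normalised reads on cornmeal and 286.0 on apple in Gotheron, and 225.0 on cornmeal and 165.8 on banana in Mayotte. The cornmeal libraries were close to each other, while the natural library was the highest of all in Gotheron and the lowest of all in Mayotte. The ratio of Gotheron to Mayotte was therefore 0.98 on cornmeal (95% interval 0.67 to 1.43 at the smoothed dispersion) and 1.72 between the natural media (1.17 to 2.54). The test of whether these ratios differed gave an unadjusted p of 0.0397 and an adjusted p of 0.66. Over both media the ratio was 1.30 (0.99 to 1.69), with an adjusted p of 0.32 in the 2-step procedure. Its log2 ratio of 0.37 depended on single libraries. Without Gotheron replicate 1 it was 0.55 and was called (adjusted p = 0.047 in the 2-step procedure), which leaves the Gotheron natural library as the only one of its population. It was 0.18 without Gotheron replicate 2, 0.17 without Mayotte replicate 2 and 0.61 without Mayotte replicate 1. In edgeR's test on 3 libraries, which also leaves out Gotheron replicate 2, it was 0.046.

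foxo, the transcription factor that insulin signalling restrains, had 1380 normalised reads on cornmeal and 1503 on apple in Gotheron, and 1073 on cornmeal and 1087 on banana in Mayotte. Both Gotheron libraries lay above both Mayotte libraries, and the mean was 1442 ± 86.9 in Gotheron and 1080 ± 10.2 in Mayotte (SD, n = 2). The ratio of Gotheron to Mayotte was 1.33, with a 95% interval of 1.04 to 1.71, an unadjusted p of 0.023 and an adjusted p of 0.19 in the 2-step procedure. The limma log2 difference was 0.42 (standard error 0.14, adjusted p = 0.27). It was called when the dispersion was taken within populations (adjusted p = 0.0195 in the 2-step procedure). Under TMM scaling the log2 ratio was 0.29, with an interval of -0.035 to 0.61.

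**Figure D3:**
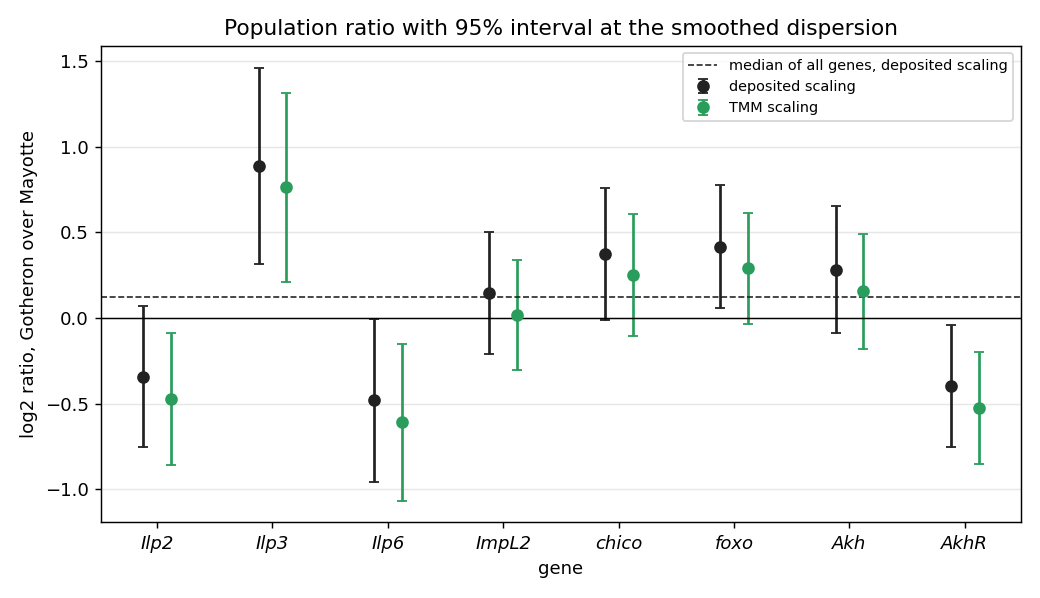
Log2 ratio of Gotheron over Mayotte (vertical axis) for each of the 8 genes (horizontal axis), in the deposited scaling (black) and under TMM scaling (green). Bars give the 95% interval at the smoothed dispersion. The dashed line is the median of the genes that reached a mean of 5 reads, in the deposited scaling. Ilp3 has the highest ratio, at 0.89 and 0.76, and the points of Ilp2, Ilp6 and AkhR lie below 0 under both scalings.

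Akh, the adipokinetic hormone, is made in the corpora cardiaca, an endocrine gland beside the brain. Its normalised read count was 297.7 on cornmeal and 419.6 on apple in Gotheron, and 276.1 on cornmeal and 313.2 on banana in Mayotte. The Gotheron natural library was the highest, and the other libraries overlapped between populations. Gotheron had 1.22 times the Mayotte level (95% interval 0.94 to 1.57, adjusted p = 0.48 in the 2-step procedure). The log2 ratio of 0.28 was 0.015 without Gotheron replicate 2 and 0.51 without Gotheron replicate 1, and 0.16 under TMM scaling, and it was not called in any of these.

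AkhR, the receptor, had 778.7 normalised reads on cornmeal and 518.3 on apple in Gotheron, and 1098 on cornmeal and 609.0 on banana in Mayotte. Both cornmeal libraries were above both natural libraries, and within each medium Mayotte was the higher. The populations overlapped, because the Gotheron cornmeal value was above the Mayotte natural value. Gotheron had 0.76 times the Mayotte level (0.59 to 0.97), with an unadjusted p of 0.0297 and an adjusted p of 0.22 in the 2-step procedure. Under TMM scaling the adjusted p was 0.031, but the gene was still not called because of the overlap. Without Gotheron replicate 1 (log2 ratio -0.72, adjusted p = 0.0148) and without Mayotte replicate 2 (-0.76, adjusted p = 0.0033) it was called in the 2-step procedure, while the log2 ratio was -0.13 without Gotheron replicate 2 and turned its sign, to 0.091, without Mayotte replicate 1. In limma it passed without Gotheron replicate 1 (adjusted p = 0.036). Each of these fits has 1 library in a population, so the spread comes from the smoothed curve in the 2-step procedure and from the other population in limma. The library left alone in the fits that called AkhR was Gotheron natural or Mayotte cornmeal, its lowest and its highest, so population and medium cannot be told apart there. In the 2-step procedure with all 4 libraries, the requirement that the populations do not overlap keeps AkhR from being called at any dispersion. There its adjusted p was 0.029 with the dispersion within populations and 0.17 with the dispersion around the mean of each medium. The fit around the mean of each medium has no term for the medium, and its dispersion contains the population difference. With the medium as a block in limma, AkhR did not pass (adjusted p = 0.32).

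AkhR had the largest difference between media of the 8 genes and was higher on cornmeal in both populations. In Gotheron its cornmeal level was 1.502 times its level on apple, with a 95% interval of 1.03 to 2.20 at the smoothed dispersion. In Mayotte its cornmeal level was 1.80 times its level on banana (1.28 to 2.53). ImpL2 and Akh had the higher values on the natural medium in both populations. The ratio of natural over cornmeal was near 1 for foxo, at 1.09 in Gotheron (0.79 to 1.51) and 1.01 in Mayotte (0.70 to 1.48). It was also near 1 for Ilp3, at 1.04 in Gotheron (0.65 to 1.67) and 0.90 in Mayotte (0.47 to 1.71). Changes within these intervals were not detectable at the smoothed dispersion, with 1 library against 1.

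Whether the medium changed these genes was tested with limma, with population as a block. With 1 library per population and medium this fit had 1 residual degree of freedom per gene, and the natural medium was not the same fruit in both populations. Of the 8 genes, 0 passed an adjusted threshold of 0.05, against 0.0160% of the genes that reached a mean of 5 reads. An unadjusted p under 0.05 was found for 2 of the 8, AkhR and ImpL2, against 6.89% of these genes. In 3 of the 8 genes both libraries of a medium lay above both of the other, against 27.7% of the genes that reached a mean of 5 reads. Cornmeal was the higher in AkhR (15.2% of genes) and the natural media in ImpL2 and Akh (12.5%). The difference had the same sign in both populations for 5 of the 8 genes, against 52.0% of these genes.

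For AkhR the limma log2 difference of natural minus cornmeal was -0.72 (standard error 0.16), with an unadjusted p of 0.0013 and an adjusted p of 0.35 in limma. It was lower on the natural medium in 2 of 2 populations. Of the genes that reached a mean of 5 reads, 18.6% differed by more than AkhR between the media in Gotheron and 5.31% in Mayotte. For ImpL2 the limma log2 difference was 0.42 (standard error 0.16, adjusted p = 0.66), with ratios of natural over cornmeal of 1.29 in Gotheron (0.91 to 1.81) and 1.39 in Mayotte (0.97 to 1.99). For Akh the limma log2 difference was 0.34 (standard error 0.17, adjusted p = 0.78), with ratios of 1.41 (0.99 to 1.997) and 1.13 (0.78 to 1.66). The differences of Ilp2, Ilp3, Ilp6, chico and foxo ranged from -0.34 to 0.071, with adjusted p-values from 0.86 to 0.99 in limma.

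The share of AkhR among the reads of AkhR and Akh compares receptor and hormone within a library, and was higher on cornmeal in both populations. In Gotheron AkhR made up 72.3% of the 1063 reads of both genes on cornmeal (95% Clopper-Pearson interval 69.5 to 75.0%) and 55.3% of 941 reads on apple (52.0 to 58.5%). In Mayotte it made up 79.9% of 1344 reads on cornmeal (77.7 to 82.0%) and 66.0% of 951 reads on banana (62.9 to 69.0%). Both cornmeal shares were above both natural shares, and within a medium the Mayotte share was the higher. The population means of 63.8% ± 12.1 and 73.0% ± 9.81 (SD, n = 2) overlapped in their libraries, and an exact two-sided permutation test between populations gave p = 0.67.

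**Figure D4:**
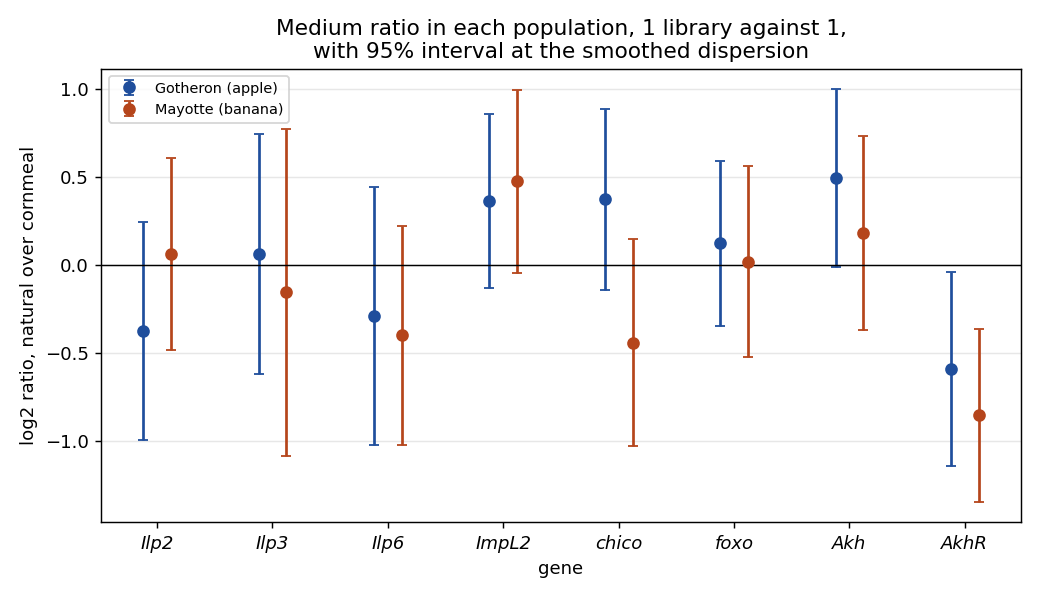
Log2 ratio of natural over cornmeal medium (vertical axis) for each of the 8 genes (horizontal axis) in Gotheron (blue, apple) and in Mayotte (red, banana), 1 library against 1, with bars for the 95% interval at the smoothed dispersion. Both AkhR points lie below 0 with their bars, at -0.59 and -0.85, and the points of chico lie on opposite sides of 0.

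The population ratio was compared between media with a test of the interaction of population and medium at the smoothed dispersion. Of the 8 genes, 0 passed an adjusted threshold of 0.05 in this 2-step test, against 0.508% of all genes, and 1 had an unadjusted p under 0.05, against 7.42% of all genes. This was chico, described above. For AkhR, whose medium difference had the same sign in both populations, the unadjusted p was 0.48. With 1 library per population and medium, an effect of food cannot be told apart from a single unusual library.

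The Gotheron natural library was the highest of the 4 libraries for Ilp3, ImpL2, chico, foxo and Akh (32.2% of genes) and the lowest for Ilp2, Ilp6 and AkhR (21.5%). It therefore stood at an end of the range in 8 of the 8 genes, against 53.7% of the genes that reached a mean of 5 reads, and under TMM scaling in 7 of the 8, against 53.9%. The Gotheron cornmeal library stood at an end in 0 of the 8 genes, against 53.0%, and under TMM scaling in 1 of the 8, against 52.3%. This count was chosen after the values were seen and has no test. The spread of the 8 genes over the 4 libraries, measured as the dispersion around their common mean, was above the smoothed curve for genes of the same mean in 8 of 8, against 51.9% of genes. It was 1.33 times the curve for Ilp2, between 1.84 and 3.21 times for Ilp3, Ilp6, ImpL2, chico, foxo and Akh, and 7.37 times for AkhR. The excess of AkhR was larger than that of 95.7% of genes. Its highest library was 2.12 times its lowest, against 1.998 times for Ilp3 and 1.40 times for foxo. This dispersion also contains any difference between the populations. The 2-step tests use the curve, so for these genes they take a smaller spread than the one measured around the common mean.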

How the data were processed

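Whole-body poly(A) RNA of males was sequenced in 4 libraries. Per the methods, reads were cleaned with seqclean and aligned with ELAND to the D. melanogaster genome and, where unmapped, to that of D. simulans, with orthologs merged. CASAVA is named in the submitters' processing notes, and the builds and versions they used are not given in these sources. The deposited values are a signal, namely read counts multiplied by 1 factor per library. Divided by the smallest nonzero value in the same library, 100% of entries were whole numbers within 0.01, which gave the reads. In the Gotheron natural library this factor is too near 1 for a check of the values to accept the reads, so shares, intervals and depth that use them rest on the multiple alone. PCR reads are not independent molecules, so intervals cover counting error only.

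In R 4.3.3 a Pearson dispersion around the mean of the 4 libraries was smoothed on the mean by loess (logarithms of both, span 0.75, degree 2, not below 1). A Wald test of the population ratio used this curve, although the methods name a likelihood ratio test, run as an alternative. Benjamini-Hochberg adjustment covered all 15358 genes at 0.05. limma 3.58.1 was fitted to log2(value + 1) with a trended prior for the 12508 genes whose mean was 5 or more, which includes the 8 members, and differences on that scale understate changes of low values. edgeR 4.0.16 gave TMM factors and a test on reads of 3 libraries, run on the same 12508 genes. That test leaves out the Gotheron natural library, so Gotheron has only its cornmeal library there. In limma p-values rest on each gene's spread between libraries, with the trended prior, and libraries of a population also differ in medium. In the 2-step and interaction tests they rest on the curve smoothed over genes, not on the spread of the tested gene. That curve also contains differences between populations and between media. The 2-step Wald and likelihood ratio tests, the interaction test and limma were run on simulated data. For the medium test in limma no recovery of changed genes was measured there. The edgeR test and the other alternatives were not run on simulated data. The members and lists were chosen with earlier results of these data known. All members are named whatever their values, and no other gene is. Other pathway genes and cell markers were not used, because 0 identifiers were found in the gene table of assembly Prin_Dsim_3.1, and sequences of the members were not used for the same reason.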

Additional observations from a re-analysis of the deposited data

How the results depend on the processing

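The 2-step procedure called 1 of the 8 genes and 801 of all genes. It called 2 and 1859 with the dispersion taken within populations. It called 0 of the 8 under TMM scaling (874 of all genes, with 4 of the 8 and 15.7% of all genes at an unadjusted p under 0.05), 0 in edgeR's quasi-likelihood test on reads of 3 libraries (707, with 1 of the 8 and 16.9%) and 0 with a quadratic curve fitted to the dispersion itself (201, with 1 of the 8 and 6.80%), the last chosen after seeing the data. The likelihood ratio test, a quadratic curve fitted to the log dispersion and a minimum mean of 5 gave 1 of the 8 genes. So did no consistency filter and a dispersion taken around the mean of each medium. Across these settings 817 to 1020 of all genes were called. Leaving out 1 library, with the lone library of that population assumed to vary like the rest, gave 0 to 3 of the 8 and 598 to 1330 of all genes, with 3 of the 8 and 1330 of all genes without Gotheron replicate 1. It gave 0 of the 8 without Gotheron replicate 2 or Mayotte replicate 1. Without Mayotte replicate 2 the 1 gene called was AkhR in place of Ilp3.

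limma called 0 of the 8 genes and 136 of all genes for the population. It called 34 of all genes with no filter on low values, 13 with 1 prior variance and 314 with the medium as a replicate block, each with 0 of the 8. Leaving out 1 library gave 0 to 1 of the 8, the 1 being AkhR without Gotheron replicate 1, and 61 to 1086 of all genes (1086 and 943 without Gotheron replicates 1 and 2, 61 without Mayotte replicate 2). For the medium limma called 2 genes, 8 under TMM scaling and 0 with no filter, with 1 prior variance or with no replicate block, where an unadjusted p under 0.05 was found for 696, 761 and 287. The interaction test called 78 genes, 375 with the dispersion within populations and 121 under TMM scaling, and 0 of the 8 in each. Natural minus cornmeal differences of the 2 populations correlated across genes with r = 0.089, and the medium was not used as a pairing. Leaving out a library left no residual degree of freedom for the medium or the interaction.

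Each gene was counted once per alternative. The population log2 ratio changed sign 5 times in the 2-step procedure or edgeR (ImpL2, AkhR, Akh) and 3 times in limma (ImpL2, AkhR). Sign and call were both unchanged 89 and 76 times, respectively. Where only dispersion, test, filter, prior variance or block changed, the ratio was fixed and only the call could change. Over the libraries left out, the 2-step log2 ratio of ImpL2 ranged from -0.073 to 0.40 and that of AkhR from -0.76 to 0.091, and the limma difference from -0.084 to 0.39 and from -0.79 to 0.061. Without Gotheron replicate 2, ImpL2 and Akh had log2 ratios of -0.18 and -0.12 in edgeR, against -0.048 and 0.015 in the 2-step procedure. Ilp3 stayed higher in Gotheron in every alternative here, with a log2 ratio of 0.72 to 0.97 in the 2-step procedure and edgeR. The causes of these changes were not tested. With 36 to 70 reads per library, Ilp3 needed a ratio of 1.83 to be called at the curve smoothed around the common mean. This limit does not hold for other 2-step dispersions. There the adjusted p of Ilp3 was 0.0031 (within populations) and 0.0187 (around the mean of each medium).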
